A study of Rattus norvegicus with 6 samples.

Results

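This report describes 35 genes that the transcription factor p53 is known to switch on, chosen by symbol as a list of p53 targets with roles in cell cycle arrest, repair, death and feedback. Of the 35 symbols, 33 were in the deposited count table, which held 17487 symbols in all, and 30 passed the filter on low counts that left 9205 symbols to test. RNA had been sequenced from the hearts of 6 adult male Wistar rats, an outbred laboratory strain. Each rat of the doxorubicin group (n = 3) was given the anthracycline doxorubicin hydrochloride, a chemotherapy drug, at 3.75 mg/kg into a tail vein every week for 4 weeks. In the control group (n = 3) each rat had received 0.9% sodium chloride on the same schedule, with no other agent or genotype named for either group. The part of the heart and the interval between the last injection and collection were not given in the labels.

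Doxorubicin blocks topoisomerase II on DNA and leaves double-strand breaks, which kinases of the damage response signal to p53. Stabilised p53 then binds a response element made of a pair of half-sites and raises transcription of genes that halt the cell cycle, support DNA repair, start cell death, or, like Mdm2, shut p53 down again. In the heart this pathway is known as one route of anthracycline injury, although many of its target genes also answer to other stress signals.

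Sequence matches to the response element are shown first because that element is the feature that names this group of genes. Promoter sequences from RefSeq (build GRCr8, from 250 bases before to 50 bases after each gene start) were found for 30 of the 35 genes by symbol, the others being Tp53inp1, Zmat3, Rrm2b, Ddb2 and Tnfrsf10b. A pair of p53 half-sites with a spacer of 0 to 13 bases, the CNNG core intact in both and at most 2 mismatches in all, occurred in 7 of these 30 promoters (23.3%), against 3.53% of 33469 promoters of the same length. A single half-site without mismatch occurred in 8 of 30 (26.7%), against 7.98% of all promoters, and a pair without mismatch in 0 of 30, against 0.0598%. The half-site reads the same on both strands, so 1 pass covered both, and the single sites overlap the pairs in all but Ei24, which had a single site and no pair. Since the genes were listed as p53 targets, these shares describe the list. The pairs in 6 genes that were in the count table are printed 5′ to 3′ on the gene's strand with up to 15 flanking bases, and the capitals mark the half-sites.
Cdkn1a (chr20:7150716-7150765, + strand): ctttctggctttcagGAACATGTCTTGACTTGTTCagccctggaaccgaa
Aen (chr1:142224488-142224532, + strand): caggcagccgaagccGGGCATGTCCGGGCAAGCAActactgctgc
Ccng1 (chr10:25685084-25685126, - strand): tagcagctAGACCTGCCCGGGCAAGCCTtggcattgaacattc
Gadd45a (chr4:97486823-97486883, - strand): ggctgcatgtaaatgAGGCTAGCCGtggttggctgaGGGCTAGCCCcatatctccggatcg
Sesn1 (chr20:46948519-46948571, + strand): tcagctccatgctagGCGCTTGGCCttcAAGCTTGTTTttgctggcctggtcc
Pidd1 (chr1:205971567-205971590, - strand, site only): AGCCTTGCCTaggcAGGCTTGCTT
The half-sites abut in Cdkn1a, Aen and Ccng1 and are 11, 3 and 4 bases apart in Gadd45a, Sesn1 and Pidd1. The seventh pair lies in the promoter of Pml, which was not analysed further because its symbol was not in the count table. A match is a description of letters in this window, and known p53 elements of other targets lie outside it.

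No gene of the list passed the test for a difference between doxorubicin and control hearts. Of the 30 tested genes, 0 were under 0.05 in edgeR's quasi-likelihood test after Benjamini-Hochberg adjustment, where 5 of 9205 symbols (0.0543%) did. The smallest adjusted p on the list was 0.244, for Perp. At an unadjusted p under 0.05 there were 6 genes (20%), against 8.10% of all tested symbols. Of these, Perp, Aen, Sulf2, Btg2 and Xpc were higher in doxorubicin hearts (16.7%, against 4.00% of symbols) and Cdkn1a was lower (3.33%, against 4.11%). DESeq2 and limma voom also gave 0 genes past the adjusted threshold, with 5 and 4 at an unadjusted p under 0.05 (5.54% and 8.04% of all symbols in these tests).

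In 8 of the 30 genes (26.7%) control and doxorubicin values were fully separated, against 13.4% of all tested symbols. For 7 of them, Perp, Aen, Sulf2, Xpc, Gadd45a, Sesn2 and Ddb2, every doxorubicin heart lay above every control heart (23.3%, against 6.39% of symbols). Cdkn1a was the gene for which every doxorubicin heart lay below (3.33%, against 7.06%). The median log2 fold change was 0.10 over the 30 genes and 0.02 over all tested symbols, with 19 of 30 genes above 0, against 52.1% of symbols. Single libraries moved the median of the listed genes, to 0.05 without doxorubicin library 1 and 0.26 without doxorubicin library 2. The fold changes ran from -0.59 for Plk3 to 1.05 for Aen. In bulk tissue, fewer cells of a type and less RNA per cell cannot be told apart.

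**Figure D1:**
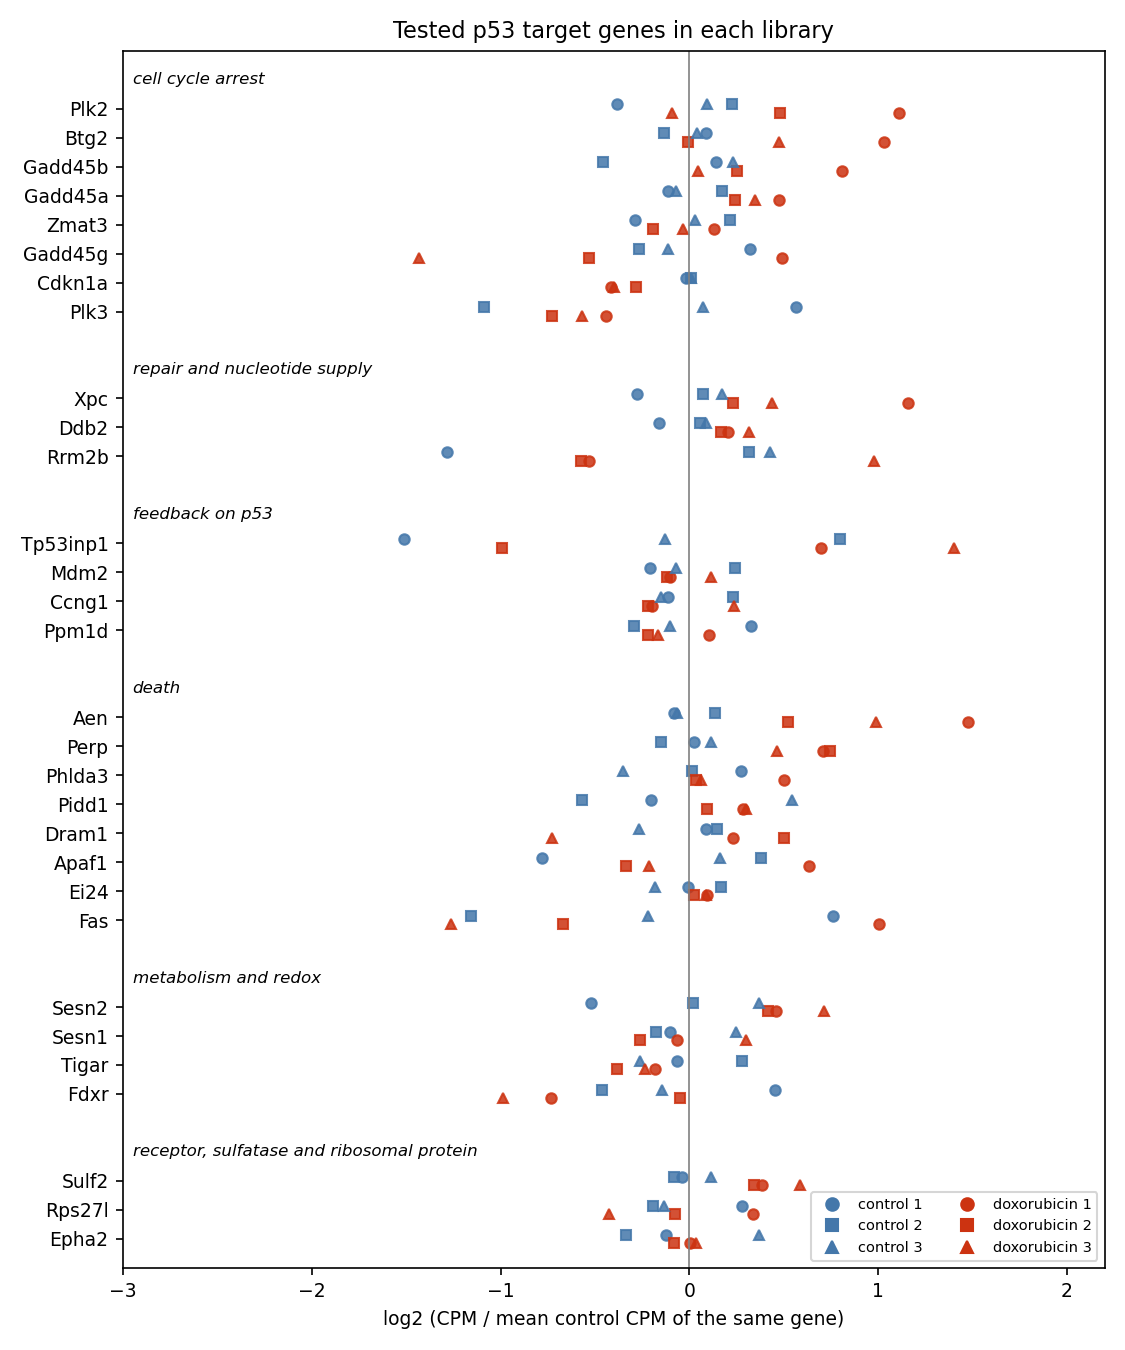
Level of each of the 30 tested genes in each library, as log2 of CPM over the mean control CPM of the same gene, grouped by role; blue symbols are control hearts and red symbols doxorubicin hearts, with a shape for each library number. The red symbols lie wholly to the right of the blue ones for 7 genes, among them Aen and Perp, and wholly to the left for Cdkn1a.

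**Figure D2:**
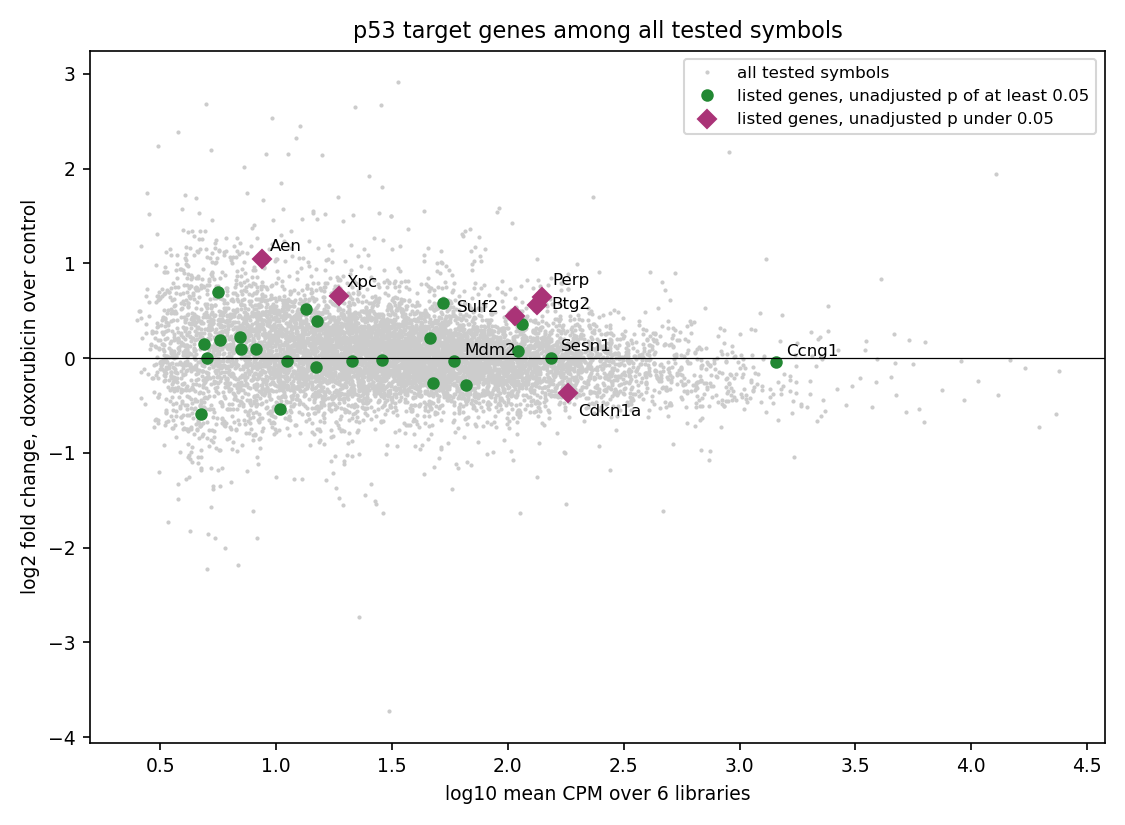
Log2 fold change, doxorubicin over control, against the log10 of mean CPM for 9205 tested symbols (grey), with the 30 tested p53 targets in green and the 6 at an unadjusted p under 0.05 as purple diamonds. Aen at 1.05 is the highest of the list, and Mdm2, Sesn1 and Ccng1 lie within 0.05 of 0.

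Library totals ranged from 2219685 to 3508282 counts, so a floor of 3 counts stood for 0.855 to 1.35 CPM (counts scaled to a common library size, adjusted here by the trimmed mean of M-values). Control library 1 stood apart on the first principal component, at -43.3 against -4.83 to 26.6 for the others, and held the lowest value for 11 of the 30 listed genes. It also held the lowest value for 27.5% of all tested symbols. Doxorubicin library 1 held the highest value for 11 of the 30 (36.7%), against 18.5% of all tested symbols. Cardiomyocyte markers summed to 144034 to 176857 CPM in control and 135571 to 144376 CPM in doxorubicin libraries over 11 genes. Macrophage and myeloid markers (14 genes, none at 0 throughout) summed to 311 to 326 CPM in control and 360 to 603 CPM in doxorubicin libraries. Markers of proliferating cells (10 genes, none at 0 throughout) summed to 38.2 to 47.7 CPM in control and 15.9 to 33.4 CPM in doxorubicin libraries. Of these 10 genes, 5 passed the count filter. Neuron and Schwann cell markers (10 genes, 4 past the count filter) summed to 13.6 to 31.5 CPM in control and 34.6 to 42.1 CPM in doxorubicin libraries. For endothelial, fibroblast, smooth muscle and pericyte, lymphocyte and adipocyte markers the sums overlapped between groups. Fibroblast markers, for example, summed to 6179 to 6587 CPM in control and 5554 to 8086 CPM in doxorubicin libraries. Control library 1 had the highest sums of erythroid markers, 7176 CPM against 682 to 2643 CPM in the other 5 libraries (9 genes, Alas2 at 0), and of skeletal muscle markers, 10498 CPM against 4185 to 6899 CPM (10 genes, Tnnt3 and Pvalb at 0). Of the 10 skeletal muscle genes, only 1 passed the count filter, and that list shares the creatine kinase gene Ckm with the cardiomyocyte list. The skeletal muscle sum is thus not a measure of skeletal muscle alone. The part of these cell types in the results on p53 targets was not tested.

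Among the 8 genes of cell cycle arrest, 4 had a fold change above 0 and 4 below, and the median was 0.17 on the log2 scale. Cdkn1a encodes p21, the inhibitor of cyclin-dependent kinases that carries much of the p53 arrest. Its level was 202, 205 and 205 CPM in control libraries 1, 2 and 3 and 153, 168 and 155 CPM in doxorubicin libraries 1, 2 and 3. The control values were tightly grouped and all doxorubicin values lay below them. The doxorubicin level was 0.78 times the control level (95% interval 0.61 to 0.99, log2 fold change -0.37, SE 0.17, edgeR adjusted p 0.594). Over the 14 alternatives the log2 fold change ran from -0.40 to -0.28, the latter under scaling by library size alone, and the unadjusted p was under 0.05 in 6 of them. The interval covers the spread among these libraries.

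The Gadd45 genes encode 3 related small proteins that bind stress kinases and cell cycle regulators. Gadd45a was at 93.2, 114 and 96.0 CPM in control libraries 1, 2 and 3 and at 140, 119 and 128 CPM in doxorubicin libraries 1, 2 and 3. Every doxorubicin value was above every control value, with doxorubicin library 2 only slightly above control library 2. The log2 fold change of Gadd45a was 0.36 (SE 0.18, edgeR adjusted p 0.624). Gadd45b was at 14.1, 9.33 and 15.1 CPM in control and 22.5, 15.3 and 13.3 CPM in doxorubicin libraries, a log2 fold change of 0.39 (SE 0.31), and its groups overlapped. Without doxorubicin library 1 the log2 fold change of Gadd45b was 0.14, and without control library 2 it was 0.23. Gadd45g was at 90.1, 59.97 and 66.7 CPM in control and 101, 49.9 and 26.8 CPM in doxorubicin libraries. Doxorubicin library 1 was the highest of the 6 for Gadd45g and doxorubicin library 3 the lowest, so the log2 fold change of -0.29 (SE 0.38) was smaller than the spread within the treated group. Without doxorubicin library 3 it was 0.078, and without doxorubicin library 1 it was -0.91.

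Btg2, an antiproliferative factor that promotes mRNA deadenylation, was at 114, 97.7 and 110 CPM in control and 220, 107 and 149 CPM in doxorubicin libraries 1, 2 and 3. Doxorubicin library 2 was within the control range and the other doxorubicin libraries above it. The log2 fold change of Btg2 was 0.56 (SE 0.23, edgeR adjusted p 0.549), and 0.26 without doxorubicin library 1. Plk2, a stress-induced polo-like kinase, was also highest in doxorubicin library 1 but had library 3 within the control range, with 32.1, 48.9 and 44.6 CPM in control and 90.2, 58.3 and 39.2 CPM in doxorubicin libraries, a log2 fold change of 0.58 (SE 0.28). Plk3, a related kinase, rested on 6 to 22 counts per library, with -0.59 (SE 0.46) as its log2 fold change. Zmat3, an RNA-binding regulator of splicing, was at 17.6 to 24.9 CPM in control and 18.7 to 23.4 CPM in doxorubicin libraries, with a log2 fold change of -0.03 (SE 0.25).

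Several of these genes, Btg2, Plk2 and Gadd45b among them, are also known as immediate early genes that answer to many stimuli. A list of 25 such genes outside the 35 was therefore read beside them, and 20 were tested. Doxorubicin library 1 held the highest value for 10 of the 20, against 18.5% of all tested symbols. Atf3, a stress-induced transcription factor that is also a p53 target, was at 7.26, 7.55 and 8.52 CPM in control libraries and 150, 15.6 and 12.4 CPM in doxorubicin libraries 1, 2 and 3. The nuclear receptor gene Nr4a1 was at 45.4, 21.8 and 29.5 CPM in control and 148, 29.3 and 35.1 CPM in doxorubicin libraries. Other genes of the list were not raised in doxorubicin library 1. Fos, Junb and Ier2 lay within the control range there, at 2.89, 66.4 and 45.3 CPM. Dusp1, Zfp36, Klf2 and Klf4 were below every control value in that library, at 99.2, 41.1, 84.7 and 50.4 CPM. Of the 20, 5 lay wholly above and 0 wholly below control (background 6.39% and 7.06%). None of the 20 passed the adjusted threshold, and 1 was higher and 2 lower at an unadjusted p under 0.05 (background 4.00% and 4.11%). The higher gene was Ier5, a regulator of heat shock factor 1, at 45.4, 46.6 and 33.8 CPM in control and 78.6, 52.7 and 61.3 CPM in doxorubicin libraries (log2 fold change 0.62, SE 0.22, edgeR adjusted p 0.443). The lower ones were the transcription factor Klf2 (log2 fold change -0.62, SE 0.26) and the phosphatase Dusp1 (-0.56, SE 0.26), whose groups overlapped. The part of an immediate early response in the values of Btg2, Plk2 and Gadd45b was not tested.

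Of the 4 repair genes, 3 were tested, and the groups did not overlap for Xpc and Ddb2, both higher (background 6.39%). Xpc encodes the damage sensor of global nucleotide excision repair. It was at 11.8, 15.1 and 16.2 CPM in control libraries 1, 2 and 3 and 32.1, 16.8 and 19.5 CPM in doxorubicin libraries 1, 2 and 3, from 31 to 100 counts per library. The groups did not overlap, but doxorubicin library 2 was only just above control library 3. The log2 fold change of Xpc was 0.66 (SE 0.30, edgeR adjusted p 0.594) and 0.34 without doxorubicin library 1. Ddb2, which recognises ultraviolet lesions in chromatin, was at 5.73, 6.66 and 6.82 CPM in control and 7.38, 7.18 and 7.96 CPM in doxorubicin libraries, from 15 to 27 counts. The groups of Ddb2 did not overlap, yet the difference was small (log2 fold change 0.23, SE 0.35, edgeR adjusted p 0.894), less than its SE. Rrm2b, the damage-induced small subunit of ribonucleotide reductase, rested on 5 to 31 counts, and its log2 fold change was 0.15 (SE 0.54). Polk, a translesion DNA polymerase, had 4 to 11 counts per library and was below the filter.

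The feedback genes did not differ beyond the spread between replicates. Mdm2, the ubiquitin ligase that degrades p53, was at 51.2, 69.7 and 56.2 CPM in control and 54.9, 54.3 and 64.0 CPM in doxorubicin libraries. The groups overlapped almost fully, and the doxorubicin level was 0.98 times control with a 95% interval of 0.73 to 1.31 (edgeR adjusted p 0.981). Ccng1, cyclin G1, which recruits a phosphatase to Mdm2, had the most counts of the list, 3517 to 5808 per library. It was at 1343, 1709 and 1313 CPM in control and 1269, 1248 and 1712 CPM in doxorubicin libraries, 0.97 times control with an interval of 0.72 to 1.30 (edgeR adjusted p 0.974). A 2-fold rise of either gene was outside these intervals. Ppm1d, the phosphatase Wip1 that resets the damage response, was at 12.4 to 19.1 CPM in control and 13.1 to 16.4 CPM in doxorubicin libraries, with a log2 fold change of -0.09 (SE 0.28). Tp53inp1, a nuclear protein that assists p53 and autophagy, was at 1.53, 7.55 and 3.98 CPM in control and 7.06, 2.18 and 11.5 CPM in doxorubicin libraries. Its 4 to 39 counts per library left the log2 fold change of 0.70 with an SE of 0.60, and leaving out 1 library moved it between 0.12 (without doxorubicin library 3) and 1.28 (without control library 2).

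All 8 tested genes of the death group had a fold change above 0, against 52.1% of all tested symbols, with a median of 0.14 on the log2 scale. Of the 8, Perp and Aen were higher at an unadjusted p under 0.05 (background 4.00%), and the other 6 had fold changes of 0.22 or less on the log2 scale with overlapping groups. The smallest was that of Fas, 0.003 (SE 0.62), which kept its sign in 8 of 13 alternatives. Ei24, Apaf1 and Dram1 also changed sign in some alternatives. Perp encodes a tetraspan membrane protein of desmosomes that also takes part in p53-dependent apoptosis. It was at 111, 98.6 and 118 CPM in control libraries 1, 2 and 3 and 179, 183 and 151 CPM in doxorubicin libraries 1, 2 and 3. The groups were well apart, and no single doxorubicin library carried the difference. The doxorubicin level of Perp was 1.56 times control (95% interval 1.20 to 2.03, log2 fold change 0.64, SE 0.18, edgeR adjusted p 0.244). Its unadjusted p was under 0.05 in all 14 alternatives, with log2 fold changes from 0.59 to 0.74, and its adjusted p passed in none, the lowest being 0.0966 in DESeq2.

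Aen, the apoptosis-enhancing nuclease, was at 5.35, 6.22 and 5.40 CPM in control libraries 1, 2 and 3 and 15.7, 8.11 and 11.2 CPM in doxorubicin libraries 1, 2 and 3. These are 14, 14 and 19 counts against 49, 26 and 38 counts. All doxorubicin hearts were above all control hearts, and the control values were close together. The doxorubicin level was 2.06 times control (95% interval 1.20 to 3.57, log2 fold change 1.05, SE 0.37, edgeR adjusted p 0.438). Of the 14 alternatives, 13 gave an unadjusted p under 0.05 for Aen. The exception left out doxorubicin library 1 and gave a log2 fold change of 0.78.

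The other death genes overlapped between groups. Fas, the death receptor, was at 8.40, 2.22 and 4.26 CPM in control and 9.95, 3.12 and 2.06 CPM in doxorubicin libraries, on 5 to 31 counts. Fas values thus spread over several-fold within each group, and the 95% interval of the ratio was 0.40 to 2.51. Phlda3, an inhibitor of Akt at the membrane, was at 33.5 to 51.5 CPM in control and 43.7 to 60.3 CPM in doxorubicin libraries (log2 fold change 0.22, SE 0.23). Ei24, a protein of the endoplasmic reticulum, was at 94.9 to 121 CPM in control and 110 to 115 CPM in doxorubicin libraries (log2 fold change 0.07, SE 0.17). Pidd1, the scaffold that activates caspase-2, Apaf1, the core of the apoptosome, and Dram1, a lysosomal regulator of autophagy, had 8 to 38 counts per library. Their log2 fold changes were 0.19 (SE 0.41) for Pidd1, 0.09 (SE 0.41) for Apaf1 and 0.10 (SE 0.40) for Dram1. Pmaip1, which encodes the BH3-only protein Noxa, had 2, 3 and 3 counts in control and 2, 0 and 5 counts in doxorubicin libraries. The 0 counts in doxorubicin library 2 allow up to 0.960 CPM. Tnfrsf10b, a TRAIL receptor, had 2 to 6 counts per library, and for both genes no difference was detectable at this depth. The symbol of the death receptor Eda2r was not in the table and was not analysed here.

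In the metabolic group, Sesn1 and Sesn2 encode sestrins, stress-induced inhibitors of the growth kinase complex mTORC1. Sesn1 was at 142, 135 and 181 CPM in control and 146, 127 and 188 CPM in doxorubicin libraries, with almost the same range in both groups. Its doxorubicin level was 1.00 times control with a 95% interval of 0.75 to 1.35 (edgeR adjusted p 0.995). Sesn2 was at 7.64, 11.1 and 14.2 CPM in control and 15.1, 14.7 and 18.0 CPM in doxorubicin libraries. The groups of Sesn2 did not overlap, with control library 1 the lowest, and the log2 fold change was 0.52 (SE 0.31, edgeR adjusted p 0.694). Without control library 1 it was 0.32. Tigar, a phosphatase that lowers glycolytic flux, was at 43.4 to 63.1 CPM in control and 39.9 to 45.9 CPM in doxorubicin libraries (log2 fold change -0.26, SE 0.21). Fdxr, the mitochondrial ferredoxin reductase, was at 8.89 to 16.8 CPM in control and 6.19 to 11.9 CPM in doxorubicin libraries (log2 fold change -0.53, SE 0.37).

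Sulf2, an extracellular sulfatase that edits heparan sulfate, was at 89.0, 86.2 and 98.8 CPM in control libraries 1, 2 and 3 and 119, 116 and 137 CPM in doxorubicin libraries 1, 2 and 3. Both groups were compact and did not overlap. The doxorubicin level of Sulf2 was 1.36 times control (95% interval 1.05 to 1.76, log2 fold change 0.44, SE 0.17, edgeR adjusted p 0.512). Of the 14 alternatives, 12 gave an unadjusted p under 0.05, and the fits without control library 2 or without doxorubicin library 3 did not. Epha2, an ephrin receptor kinase, had a log2 fold change of -0.03 (SE 0.31). Rps27l, a ribosomal protein paralog, was at 25.3 to 35.1 CPM in control and 21.5 to 36.6 CPM in doxorubicin libraries (log2 fold change -0.02, SE 0.25). Rps27l resembles Rps27, and the treatment of reads shared by the pair is not given in the sources used here, which leaves its level uncertain.

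**Figure D3:**
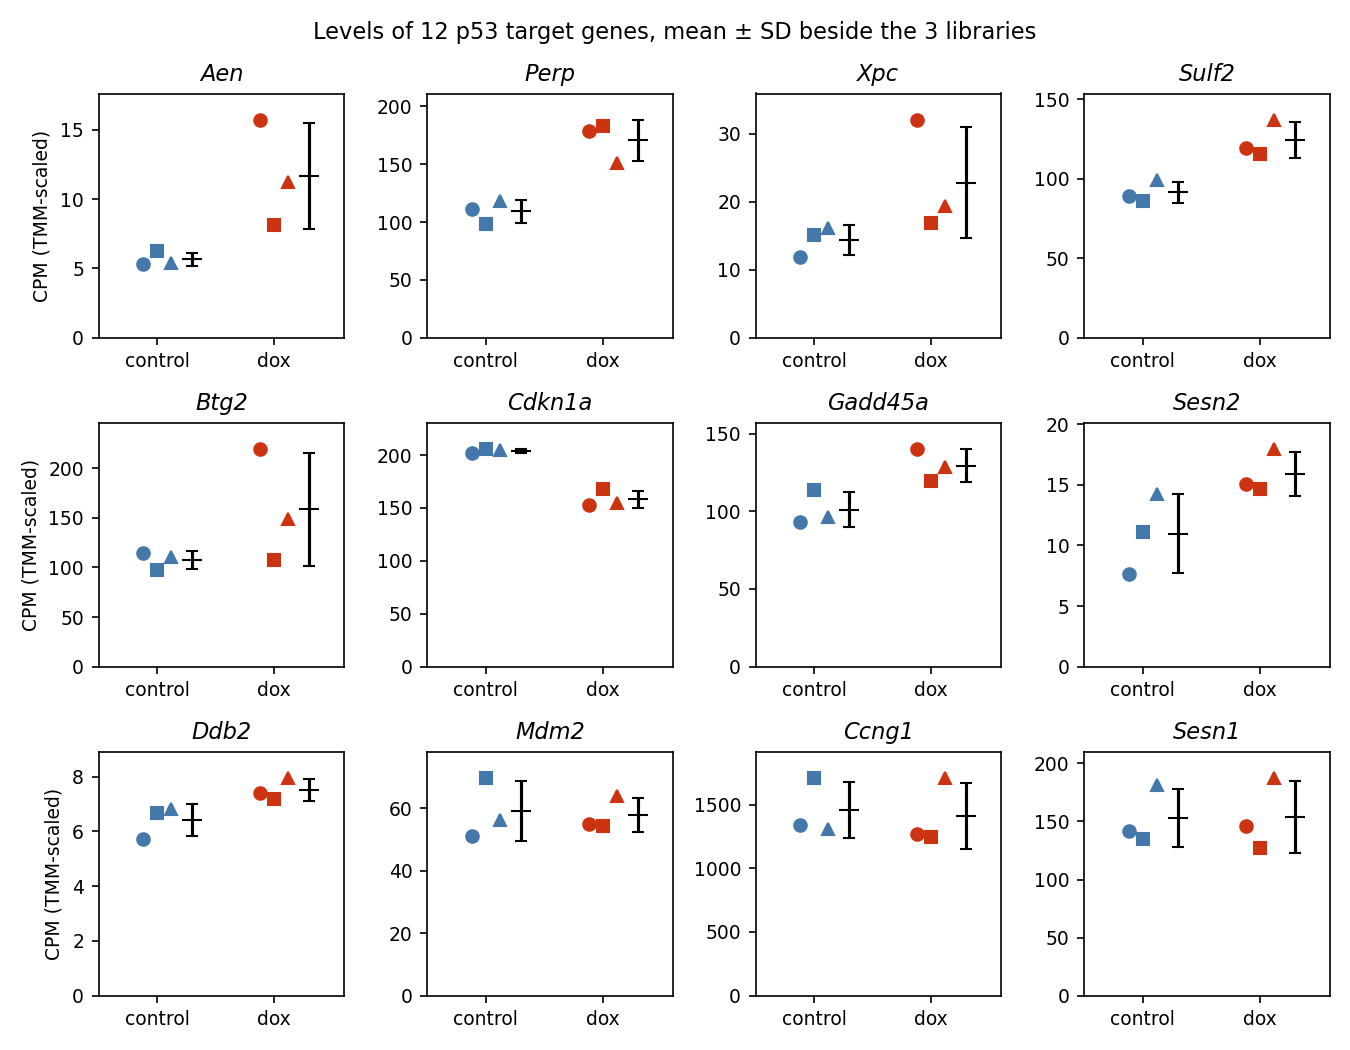
CPM of 12 p53 targets in each library, with the mean and SD (n = 3) beside the points; blue is control and red doxorubicin, and circle, square and triangle are libraries 1, 2 and 3. Perp, Sulf2 and Cdkn1a show compact groups that do not overlap, while doxorubicin library 1 is the highest point for Aen, Xpc and Btg2.

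Set beside their matched half-site pairs, the 6 genes printed above had log2 fold changes of 1.05 (Aen), 0.36 (Gadd45a), 0.19 (Pidd1), 0.01 (Sesn1), -0.05 (Ccng1) and -0.37 (Cdkn1a). Binding of p53 to these matches was not measured. The 3 genes with abutting half-sites thus included the highest fold change of the list and one of the lower ones.

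The count of 6 genes at an unadjusted p under 0.05 changed when 1 library was left out, which also left fewer libraries to test. Without control library 3 there were 3 genes, Aen, Perp and Sulf2, with a background of 6.76% of symbols. In that fit the log2 fold changes of Btg2 (0.58, SE 0.29), Cdkn1a (-0.36, SE 0.21) and Xpc (0.76, SE 0.37) had not shrunk appreciably. Their SEs were larger than with all libraries. Without doxorubicin library 1 there were also 3, Gadd45g, Perp and Sulf2, with a background of 6.69%. With the library that stood apart, control library 1, left out there were 5, all of them among the 6, with a background of 5.61%.

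**Figure D4:**
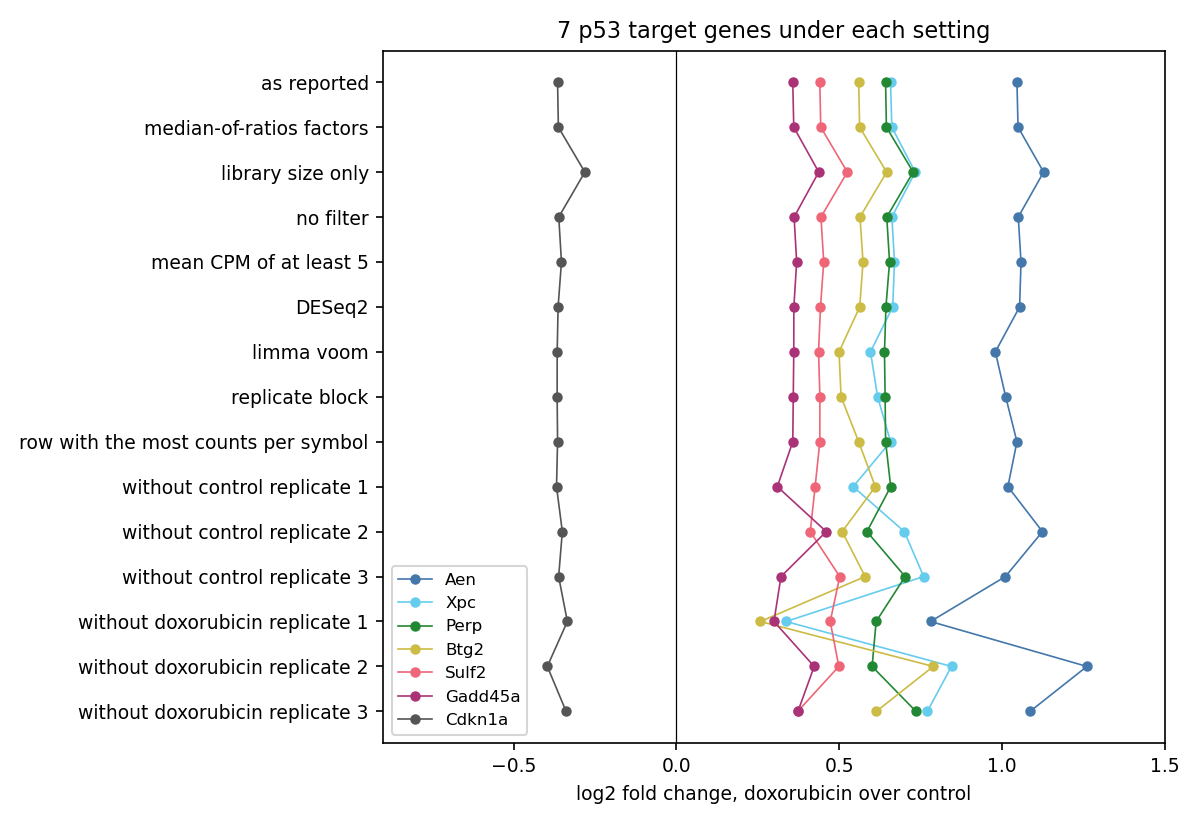
Log2 fold change, doxorubicin over control, of 7 p53 targets as reported and under 14 other settings. Cdkn1a stays between -0.40 and -0.28 and Perp between 0.59 and 0.74, while Aen, Btg2 and Xpc have their lowest values without doxorubicin library 1, at 0.78, 0.26 and 0.34.

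Regulators upstream of p53 were read from a list of 29 genes, of which 25 were in the table and 20 were tested. None passed the adjusted threshold, 1 had an unadjusted p under 0.05 (background 8.10%), and the median log2 fold change was 0.04. That gene was Usp7, a deubiquitinase of Mdm2 and p53. It was at 45.8, 59.97 and 65.3 CPM in control and 90.8, 77.7 and 106 CPM in doxorubicin libraries, with every doxorubicin value above every control value (log2 fold change 0.68, SE 0.20, edgeR adjusted p 0.314). Mdm4, the partner of Mdm2, differed by 0.44 on the log2 scale (SE 0.30), and the damage kinase gene Atm by 0.50 (SE 0.44). Cdkn2a and Tp63 were listed at 0 in all libraries. Tp63 stood on 6 rows, and other symbols on several rows, such as Jund and Cebpb, were also at 0 throughout. How reads of such symbols were counted is not given, so the 0 of Tp63 is not read as absence.

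A list of 59 further p53 targets had 44 tested genes, 25 with a fold change above 0 and a median of 0.01 on the log2 scale. None passed the adjusted threshold, and at an unadjusted p under 0.05 there were 4 higher and 2 lower (background 4.00% and 4.11%). Of the 44, 7 lay wholly above and 4 wholly below control (background 6.39% and 7.06%). Of the higher genes, 3 are described here. Thbs1, the matrix glycoprotein thrombospondin 1, was at 3.05, 5.33 and 3.98 CPM in control and 30.8, 8.74 and 15.3 CPM in doxorubicin libraries, on 8 to 14 counts per control library (log2 fold change 2.15, SE 0.46, edgeR adjusted p 0.125). Thbs1 was lowest among treated hearts in doxorubicin library 2, and it passed the adjusted threshold when that library was left out, at 0.0140 in edgeR.

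Igfbp3, a binding protein of insulin-like growth factors, ran the other way among treated hearts, with 30.2, 32.9 and 48.3 CPM in control and 49.1, 129 and 96.1 CPM in doxorubicin libraries 1, 2 and 3 (log2 fold change 1.29, SE 0.31, edgeR adjusted p 0.158). Acer2, a ceramidase of the Golgi, was at 18.3, 28.0 and 25.0 CPM in control and 53.3, 44.0 and 37.1 CPM in doxorubicin libraries (log2 fold change 0.91, SE 0.24, edgeR adjusted p 0.202). The 2 lower genes were Pank1, a pantothenate kinase of coenzyme A synthesis, and Rhoc, a small GTPase. Pank1 was at 81.3, 74.2 and 83.2 CPM in control and 46.5, 50.9 and 55.7 CPM in doxorubicin libraries, compact groups that did not overlap (log2 fold change -0.64, SE 0.18, edgeR adjusted p 0.277). Rhoc had a log2 fold change of -0.49 (SE 0.21, edgeR adjusted p 0.575).

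**Figure D5:**
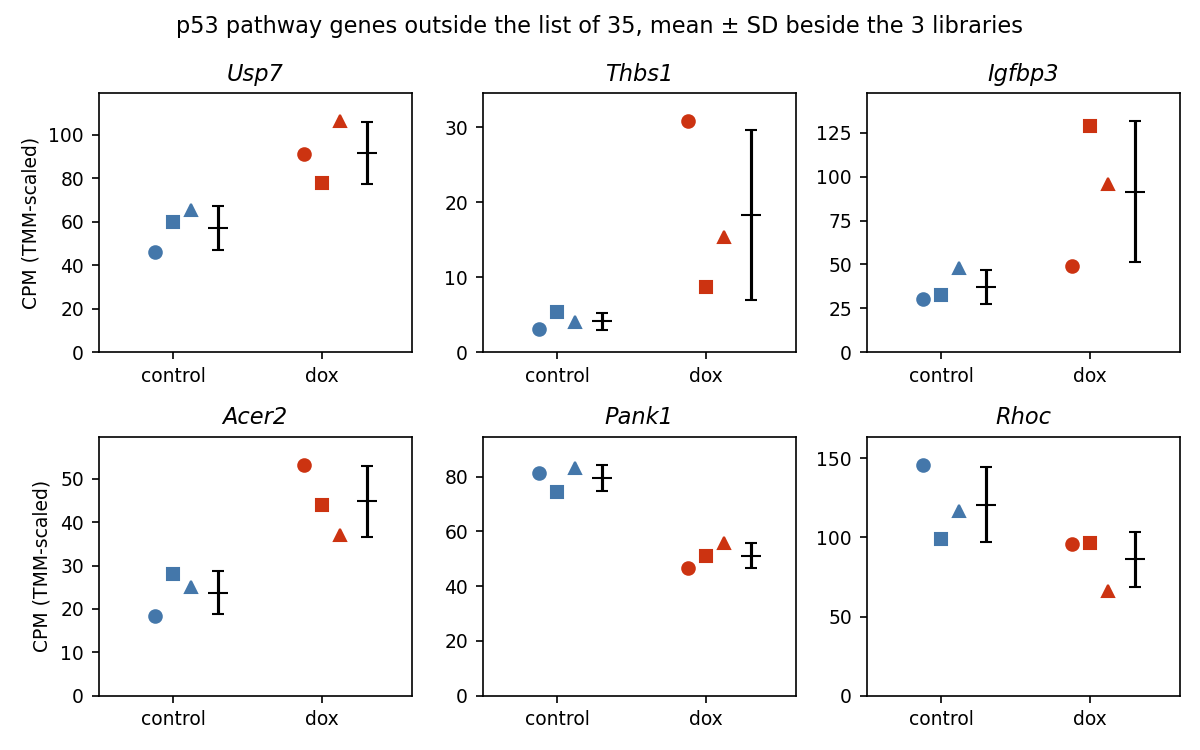
CPM in each library of 6 p53 pathway genes outside the list of 35, with the mean and SD (n = 3) beside the points; blue is control and red doxorubicin, and circle, square and triangle are libraries 1, 2 and 3. Usp7, Thbs1, Igfbp3 and Acer2 lie above control in all 3 treated hearts and Pank1 and Rhoc below.

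Some p53 targets, Cdkn1a, Sesn1 and Gadd45a among them, are also known to answer to FoxO factors or glucocorticoids. A separate list of 20 genes responsive to FoxO factors or glucocorticoids, not chosen as p53 targets, was read beside them. Of these, 17 were tested, 8 with a fold change above 0, and the median was -0.04 on the log2 scale. None passed the adjusted threshold, and 3 were higher and 2 lower at an unadjusted p under 0.05 (background 4.00% and 4.11%). Fkbp5, Per1, Fbxo32 and Trim63 had log2 fold changes of 0.01, 0.08, 0.05 and -0.09. Zbtb16 was at 7.64, 5.78 and 5.96 CPM in control and 8.35, 9.98 and 27.1 CPM in doxorubicin libraries, and Foxo3 at 11.8, 10.2 and 8.52 against 13.2, 14.0 and 30.9 CPM. Doxorubicin library 3 was the highest for both, and also for the third higher gene, Klf9, whose groups overlapped (log2 fold change 1.01, SE 0.44). Pdk4, a kinase that restrains pyruvate oxidation, was at 133, 119 and 260 CPM in control and 37.2, 60.2 and 67.2 CPM in doxorubicin libraries (log2 fold change -1.64, SE 0.30, edgeR adjusted p 0.0791). Mt1, a metallothionein, had a log2 fold change of -0.67 (SE 0.23, edgeR adjusted p 0.419). The part of these signals in the level of Cdkn1a was not tested.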

How the data were processed

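RNA of 6 rat hearts, 3 per group, was sequenced as mRNA libraries (Watchmaker kit) on an Illumina NovaSeq instrument, per the labels' protocols. Unnormalized whole-number counts for each annotation row are what the authors deposited; FastQC, Trimmomatic, STAR, HTSeq and the build mRatBN7.2 are named in the submitters' processing notes, and the annotation, strand setting and counting mode were not given in the sources used here. Rows of a symbol were summed (599 symbols stood on several of 18473 rows, none of them a listed p53 target). The test was edgeR 4.0.16 (R 4.3.3), quasi-likelihood, intercept and treatment, trimmed mean of M-values, robust dispersion, filterByExpr (minimum count 10, total 15), Benjamini-Hochberg adjustment over 9205 symbols, threshold 0.05. The SE was the log2 fold change over the square root of F, and 95% intervals used the test's degrees of freedom. The spread between libraries had a common biological coefficient of variation of 0.212. On simulated counts for 9205 symbols, 56 of 100 2-fold and 95 of 100 4-fold changes were recovered, with 11 false calls. The changes were planted together in symbols with a mean of at least 10 counts, without shifts shared within a library. In the real data 5 symbols passed, so the adjusted cut-off was stricter there. These shares are thus not the power for the listed genes.

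Values in every library were given for genes with an unadjusted p under 0.05 or groups that do not overlap, and for a best known target of each role. From the other lists, genes meeting both criteria were named; all others were picked with values in view, and 1 gene that met the rule is not reported here. The members and lists were chosen with earlier results of these data known. Libraries of a group differed by more than sampling noise (chi-square per degree of freedom 4.11 to 14.4). The labels call the libraries biological replicates and describe no pairing. The p-values set each difference against the variation between these animals as estimated by the fit. Floors of 3 counts cover counting error only. Alternatives were other scalings, filters and tests (DESeq2 1.42.0, limma 3.58.1 voom), a replicate block, 1 row per symbol and leaving out each library. Promoters came from RefSeq, build GRCr8, which differs from the build of the counts. Python 3.11.15, pandas 2.3.3 and matplotlib 3.10.9 were used for sequences and figures.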

Additional observations from a re-analysis of the deposited data

How the results depend on the processing

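The count of listed p53 targets past the adjusted threshold was 0 under each of the 14 alternatives, and Perp, Aen, Sulf2, Btg2, Xpc, Gadd45a, Sesn2, Ddb2, Gadd45b, Tp53inp1 and Cdkn1a kept their direction in each. The count at an unadjusted p under 0.05 was 3 to 6 of those tested, and 3 to 5 when 1 library was left out (5.61% to 9.53% of all symbols). The median of the listed genes ran from 0.05 (without doxorubicin library 1) to 0.26 (without doxorubicin library 2), against 0.01 to 0.10 for all symbols. Scaling by library size alone moved the median of all symbols to 0.10.

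Against 5 symbols past the threshold, library size alone and limma voom gave 0 (713 and 740 at an unadjusted p under 0.05), no filter 61, a mean CPM of at least 5 gave 1, and DESeq2 75. The fits that left out 1 library gave 0 to 35 symbols. Further p53 targets past the threshold numbered 2 with no filter (Thbs1 among them), 3 in DESeq2 (Thbs1 and Igfbp3 among them) and 0 to 2 when a library was left out. Among FoxO and glucocorticoid genes, Pdk4 alone passed, as 1 gene with no filter, in DESeq2 and with the replicate block. The causes were not tested.

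Genes near 0 changed sign. With library size alone Ccng1 became 0.036 and Mdm2 0.049, both below the shift of all symbols. With limma voom Fas became -0.16 and Sesn1 -0.00089, and with the replicate block Fas became -0.088. Over the fits that left out 1 library, Ccng1 ran from -0.20 to 0.097, Mdm2 from -0.12 to 0.11, Sesn1 from -0.15 to 0.15, Fas from -0.93 to 0.58 and Gadd45g from -0.91 to 0.078.

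With the replicate number as a block, 13 symbols and 0 listed p53 targets passed, and 4 listed genes had an unadjusted p under 0.05 (6.59% of all symbols). The labels describe no pairing. Deviations of same-numbered libraries correlated at 0.021, -0.19 and -0.056, and those of differently numbered ones at -0.12 to 0.195. These values gave no sign of pairing, but with 3 libraries per group they cannot exclude it. Depth limits Pmaip1, Tnfrsf10b, Polk, Fas, Rrm2b and Tp53inp1.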
